A study of Mus musculus with 2 samples.

Results

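Tumor cells with high Msln and Krt19 were 324 of 3249 tumor cells, which were themselves 3249 of 11249 barcodes of good quality in single-cell RNA libraries of orthotopic mouse pancreatic tumors. They were chosen by a score. The unique molecule (UMI) counts of Msln, Slurp1, Krt19 and Krt7 were summed in each tumor cell and divided by that cell's total, and the top 10% of tumor cells of both libraries pooled were taken as members. A barcode was kept with at least 3000 UMIs, 200 to 5000 genes and up to 8% mitochondrial UMIs. It was called a tumor cell with at least 2 UMIs of Krt8 and Krt18 together, none of Ptprc or Pecam1, at most 1 of Dcn and Lum together, and under 0.2% of its UMIs from Lyz2, C1qa, C1qb and C1qc.

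The tumors grew from KPC cells, a line of mouse pancreatic cancer, injected in Matrigel into the pancreas of male mice. The flox library came from MCT1 fl/fl mice, whose Slc16a1 gene, encoding the lactate transporter MCT1, is flanked by loxP sites. The library labelled MCT1-KO came from PSCs-MCT1-/- mice, in which a Cre switched on by tamoxifen and driven by the Col1a2 promoter is intended to remove Slc16a1 from pancreatic stellate cells (PSCs). The implanted tumor cells carry neither the floxed gene nor the Cre. The paper's scheme gives tamoxifen or corn oil before the KPC cells, without saying which the flox mice received. The study's methods place the harvest 2 to 3 weeks after injection, and how many animals stand behind each library is not given in the sources used here.

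With 1 library per condition there was no replicate and no test, and cells of one library are not replicates. Every interval printed here is a 95% interval of counting error in UMIs or cells, exact in each case (Poisson for a level, conditional binomial for a ratio, Clopper-Pearson for a share). Levels are in CPM, the UMIs of a gene scaled to all UMIs of the same cells, and a ratio is the members' level over that of the other tumor cells of the same library. Where a pair of values is printed, the flox library comes first and the library labelled MCT1-KO second. The libraries held 177334432 and 151118092 UMIs, and they shared 3 cell barcodes among tumor cells and 0 among members. Deletion of Slc16a1 could not be seen in the cells gated here. Cells with at least 3 UMIs of Dcn and Lum had 25.8 CPM of it in the flox library (29 UMIs) and 34.6 CPM in the library labelled MCT1-KO (60 UMIs). These values cannot decide on the deletion, since the gate is not the paper's PSC cluster and RNA from outside the cells was not subtracted. The paper reports lower MCT1 in PSCs of PSCs-MCT1-/- mice in its single-cell data. It also reports genotyping of tail DNA, and reduced MCT1 protein and RNA in primary PSCs.

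Mesothelin (Msln) is a glycoprotein anchored on the surface of mesothelial cells, and many pancreatic carcinomas express it. Krt19 and Krt7 are keratins of simple and ductal epithelium, and Slurp1 is a small secreted protein of the Ly6/uPAR family found in stratified epithelium. Carcinoma cells of the pancreas can lie anywhere between an epithelial form, with E-cadherin junctions and these keratins, and a mesenchymal form, with vimentin and few junctions.

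Members made up 81 of 1023 tumor cells in the flox library (7.92%, 6.34 to 9.75) and 243 of 2226 in the library labelled MCT1-KO (10.9%, 9.65 to 12.3). This order depended on the genes of the score. Without Msln the shares were 10.3% and 9.84%, by Krt19 alone 10.9% and 9.57%, and by Krt7 alone 8.99% and 10.4%. Their median depth was close to that of the other tumor cells, at 17334 and 17215 UMIs against 15849 and 15932. The lower quartiles were 6148 and 10123 UMIs against 7437 and 10726.5. The median mitochondrial share was 2.79% and 3.51% in members and 3.19% and 3.60% in the others. The score was 0 in 1301 of all tumor cells (40.04%), and its median in members was 0.0646% and 0.0618% of UMIs.

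The threshold was a cut through a continuous range. The last cell inside held 7 UMIs of the rule genes in 17614 (0.0397%), and the first outside held 8 in 20219 (0.0396%). Within a factor of 1.25 of the threshold lay 89 members and 120 other cells. The fewest UMIs of the rule genes in a member was 2.

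Since the members were chosen by them, the levels of the rule genes are a description. Krt19 (chr11:100140810-100148665, minus strand) was at 437 CPM in members and 28.7 CPM in other tumor cells of the flox library, a ratio of 15.2 (13.3 to 17.4). In the library labelled MCT1-KO it was at 319 and 24.7 CPM, a ratio of 12.9 (11.8 to 14.2). Krt7 (chr15:101411043-101430313, plus strand) was at 193 and 34.2 CPM in the first and 212 and 35.5 CPM in the second, ratios of 5.63 (4.79 to 6.60) and 5.98 (5.45 to 6.56). Members thus held both keratins well above the remaining tumor cells in either library. Msln (chr17:25748613-25754378, minus strand) reached 124 CPM in flox members against 16.5 CPM in the others, a ratio of 7.51 (6.07 to 9.27). Its levels in the library labelled MCT1-KO were 202 and 33.4 CPM, a ratio of 6.06 (5.51 to 6.66). Slurp1 (chr15:74724318-74728034, minus strand) was at 31.1 and 49.4 CPM in members and 0.368 and 0.542 CPM in the others. It was a gene of few cells, with a UMI in 10 and 30 members, and 8 of these cells carried 50% of its UMIs in members.

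**Figure D1:**
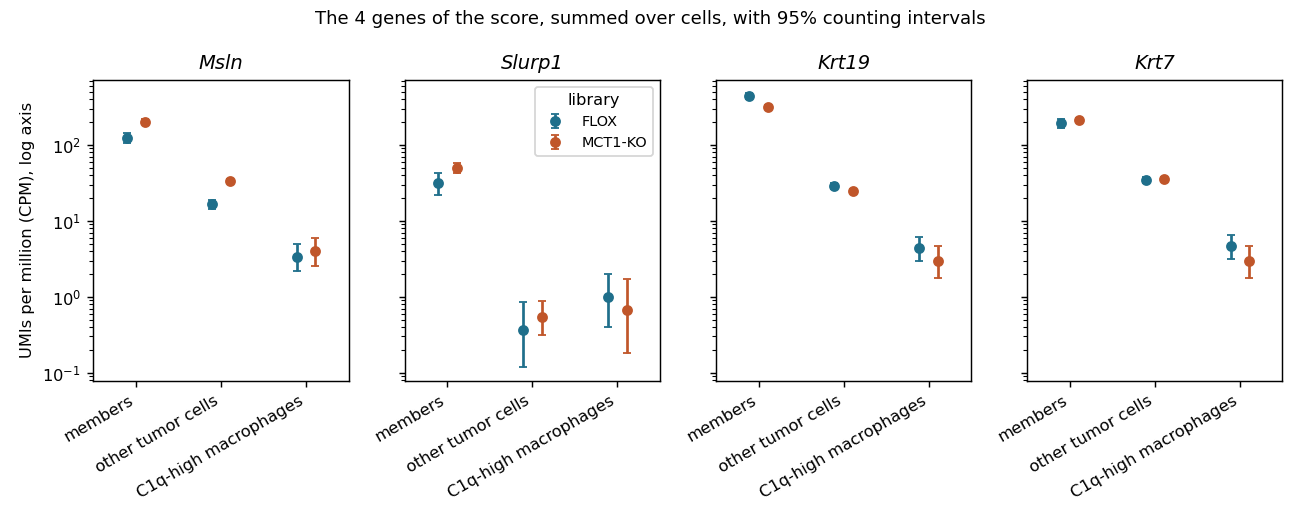
Level of each rule gene in CPM on a log axis, in members, other tumor cells and macrophages without Krt8 or Krt18 UMIs of the flox library (FLOX) and of the library labelled MCT1-KO, with 95% counting intervals as bars. These genes chose the members, and after Slurp1 the gap is widest for Krt19, with 437 against 28.7 CPM in the flox library.

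Free RNA was read from cells that should lack these genes. A Krt19 UMI was found in 84.0% and 81.5% of members, in 24.5% and 22.1% of other tumor cells, and in 2.90% and 1.63% of macrophages (cells with at least 0.5% C1q UMIs and no UMI of Krt8 or Krt18), which should lack it but were shallower (medians of 6276 and 5114 UMIs). After every cell was thinned to 3000 UMIs, the shares were 59.3% and 50.2% in members, 8.71% and 7.26% in other tumor cells and 1.22% and 0.635% in macrophages. For Msln the thinned shares were 28.4% and 42.0%, 4.56% and 9.08%, and 1.12% and 1.09% in the same order. Macrophages taken without the condition on Krt8 and Krt18, 902 of 1971 and 603 of 1706 of which held a UMI of these keratins, gave thinned shares of 1.32% and 0.762% for Krt19 and 1.01% and 1.82% for Msln. Other tumor cells lay above these shares for both genes. The near-empty barcodes (medians of 20 and 18 UMIs) held Krt19 at 49.0 and 42.0 CPM and Msln at 36.1 and 58.8 CPM, below the members and above the other tumor cells.

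The score was not made up alike in both libraries. Krt19 gave 55.7% of the members' score in the flox library and 40.8% in the library labelled MCT1-KO, and Msln gave 15.8% and 25.9%. Of the members, 15 and 19 held UMIs of a single rule gene, 30 and 80 of 2, 30 and 123 of 3, and 6 and 21 of all 4. When each member was assigned to its highest rule gene, Krt19 led in 123 members (38.0%), Krt7 in 89 (27.5%), Msln in 64 (19.8%) and Slurp1 in 8, and 40 were ties. The genes also came together in single cells. Over all tumor cells, Krt19 was at 124 CPM in cells with a Msln UMI and 41.1 CPM in cells without one in the flox library, and at 98.5 and 32.3 CPM in the library labelled MCT1-KO. Cells with a Msln UMI were deeper (medians of 19080 and 17743 UMIs against 14306 and 14808), and the part of depth in this was not tested.

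The members did not form a group apart. Tumor cells were placed by 1996 variable genes, with the rule genes left out, on 20 principal components. Among the 20 nearest tumor cells of a flox member, 16.4% on average were members, against 7.92% of all tumor cells. The values in the library labelled MCT1-KO were 24.7% and 10.9%. Of the members, 10 and 19 had no member among their 20 nearest cells, and 0 and 20 had at least 10.

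Beyond the rule genes, the label of an epithelial state was met by few genes. Epithelial transcription and splicing factors summed to 0.85 and 0.83 times the other cells. Junction genes were higher in sum but mostly at low levels. Mesenchymal genes were also higher in sum, while most of those counted were below the other cells. Epcam, an adhesion protein of nearly all epithelia, had a UMI in 6 and 9 members, at 35.2 and 28.6 CPM against 6.03 and 6.06 CPM in other tumor cells, and 4 cells carried 50% of it. Of 32 junction and adhesion genes, 21 had under 200 UMIs over all tumor cells and were not counted. Among the 11 counted, 3 were at least 1.5 times higher in members of both libraries (Cdh1, Epcam and Itgb4) and 0 were lower, against 1.56% and 4.0% of all genes counted. Above 1 lay 8 and 7 of the 11, with median log2 ratios of 0.45 and 0.42, and the whole list summed to 1.28 times the other cells in both libraries. Cdh1, which encodes E-cadherin, was at 14.8 and 14.3 CPM in members against 5.89 and 5.55 CPM, ratios of 2.51 (1.41 to 4.22) and 2.57 (1.86 to 3.51), with a UMI in 10 and 30 members. Itgb4, the integrin of hemidesmosomes, was at 27.9 and 37.2 CPM against 13.5 and 16.8 CPM, but its flox ratio was 1.15 (0.56 to 2.14) with score and levels from separate UMIs. The tight junction scaffold Tjp1 and plakoglobin (Jup) were past 1.5-fold in neither library, with ratios of 0.76 and 0.95 for Tjp1 and 0.75 and 0.91 for Jup. The claudins Cldn3 and Cldn4 were too low to be counted, with 17 and 61 UMIs of Cldn3 and 12 and 29 of Cldn4 in all members.

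Vimentin (Vim) stood at 2792 and 3926 CPM in members and 2762 and 3363 CPM in the others, ratios of 1.01 (0.98 to 1.05) and 1.17 (1.15 to 1.19). Of 21 mesenchymal genes counted, Tpm2 was past 1.5-fold higher and Col5a2 and Tagln lower in both libraries, the last 2 with a UMI in 4 and 6 and in 3 and 11 members, against 1.56% higher and 4.0% lower of all genes. The summed list was at 1.26 and 1.18 times the other cells, but 7 and 8 of the 21 genes lay above 1, with median log2 ratios of -0.23 and -0.16. Galectin 1 (Lgals1) was at 5610 and 4310 CPM in members, 1.79 and 1.46 times the others, and fibronectin (Fn1) at 1175 and 1163 CPM, 0.87 and 0.88 times. The repressors of E-cadherin Zeb1 and Zeb2 were at 0.64 and 0.77, and 0.63 and 0.79, times the level of the other cells, past the fold in the flox library for both and in neither case in the second. No UMI of Snai2 or Twist1 was found in a member. The cells are therefore called by their rule genes here. Their keratins were set by the rule and the gate, and vimentin was also high in the other tumor cells. A profile of both thus does not set the members apart.

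Mesothelial lining cells, which also express Msln and Krt19, were checked with 12 markers. Of these 10 had under 200 UMIs over all tumor cells. Wt1, Upk3b, Lrrn4, Rspo1 and Calb2 had 1 UMI or none in all 324 members, and the summed list was at 110 and 80.8 CPM in members against 102 and 73.1 CPM in the others. Markers of T and NK cells summed to 10.7 and 2.60 CPM in members, with Cd8a and Klrb1c at 0, and those of macrophages to 574 and 338 CPM against 596 and 292 CPM, with Ccr2 at 0. Markers of acinar cells summed to 60.7 CPM in members against 779 CPM in the flox library and to 980 against 1489 CPM in the second, but few cells made the gap, since the median cell held 0 and 5.42 of their UMIs per 10000 in members and 0 and 5.31 in the others. Markers of normal duct, which include Epcam, summed to 5464 and 3093 CPM in members against 3882 and 2953 CPM, ratios of 1.41 (1.37 to 1.44) and 1.05 (1.03 to 1.07). Most of this was Spp1, which made 4080 of 5343 and 2553 of 3068 CPM in the 10% of each library highest in score. Of 6 genes counted, Epcam was past the fold higher and 0 were lower, against 1.56% and 4.0% of all genes. The median log2 ratios were 0.25 and -0.006. Markers of fibroblasts and stellate cells summed to 0.81 and 0.84 times the other cells' level, with median log2 ratios of -0.82 and -0.84. Of 7 counted, 2 were past the fold lower and 0 higher, against 4.0% and 1.56% of all genes. The part of these cell types in the results below was not tested.

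Genes of gastric surface epithelium were held by few members. In the flox library 2 members held 978 to 2370 UMIs of Gkn1 and 2347 to 3936 of Tff1, secreted proteins of the gastric surface, with 30 and 62 UMIs of Krt19. With them the summed list of gastric and classical subtype genes was at 9746 CPM in flox members against 910 CPM, and at 356 against 310 CPM in the library labelled MCT1-KO. Leaving out every cell with an Epcam UMI or with at least 10 UMIs of gastric, islet or plasma cell genes, and scoring anew, kept 130 of the 155 higher genes and 332 of the 397 lower genes described next.

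Of 9920 genes with at least 200 UMIs over all tumor cells, 155 (1.56%) were at least 1.5 times higher in members of both libraries and 397 (4.0%) at least 1.5 times lower, with rule genes and genes of the tumor cell gate left out. The median log2 ratio over all genes was -0.09 and -0.08. In a single library the same fold was passed by 638 and 269 genes upward and by 1490 and 769 downward. In 131 of the 155 higher genes at least 10 members were needed to reach 50% of the gene's UMIs in members, and in 15 no more than 5 were. With the score taken from a random 50% of each cell's UMIs and the levels from the rest, 98 genes were higher, 67 of them among the 155, and 313 were lower, 197 of them among the 397. Of the genes past the fold that are named below or above, Aldh3a1, Aldoa, Areg, Ccn1, Ccnb1, Clps, Clu, Col5a2, Dnajb1, Dusp1, H2-Q7, Itgb4, Pdk1, Pgam1, Pkm, Reg2, Tead4, Tgfb3, Tpi1, Tpm2, Try4 and Uhrf1 were then no longer past it in both libraries. Among the same named genes, Aldh3a1, Ccnb1, Clps, Clu, Col5a2, Ctrb1, Fxyd3, H2-Q7, Hsd11b1, Igha, Iglc1, Iglv1, Jchain, Krt76, Ly6c2, Mmp7, Pdk1, Rasgrp2, Reg2, Slc6a12, Sparcl1, Sprr1a, Tagln, Tead4, Tgfb3, Tm4sf4, Try4, Ube2c and Uhrf1 crossed a ratio of 1 in at least 1 library under another setting.

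Ranked by the smaller of its 2 ratios, the first of the higher genes was Prl2c2 (chr13:12996125-13005383), which encodes proliferin, a secreted hormone of the prolactin family. It was at 54.9 CPM in flox members against 2.94 CPM, a ratio of 18.7 (12.4 to 28.3), and at 72.0 against 3.69 CPM in the library labelled MCT1-KO, a ratio of 19.5 (15.6 to 24.6). A UMI was present in 15 and 61 members. Seen from the gene, 37.5% and 52.1% of tumor cells with a Prl2c2 UMI were members, against 6.71% and 8.63% of those without. Genes of this family are near copies of each other, so its UMIs could belong in part to a relative. Klra4, of the Ly49 family of lectin-like receptors known from NK cells, was at 60.7 and 80.8 CPM in members against 10.5 and 15.2 CPM, ratios of 5.76 (4.29 to 7.68) and 5.30 (4.58 to 6.14). It was held by 29 and 107 members, and its assignment within the Ly49 cluster carries the same doubt.

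Ly6c1, a GPI-anchored surface protein of the same Ly6/uPAR family as Slurp1, was at 272 and 228 CPM in members against 89.2 and 68.9 CPM. The ratios were 3.05 (2.69 to 3.45) and 3.31 (3.05 to 3.58), and 57 and 154 members had a UMI. Its near copy Ly6c2 was at 1 and 3 UMIs in all members. Of 7 Ly6/uPAR genes counted, Ly6c1 was higher and Ly6c2 lower, against 1.56% and 4.0% of all genes. The median log2 ratios of that list were 0.02 and -0.15. Gene 2610528A11Rik, which encodes a small secreted ligand of the receptor GPR15, was at 525 and 193 CPM in members and 103 and 50.3 CPM in the others, ratios of 5.12 (4.66 to 5.63) and 3.85 (3.52 to 4.21). Its level in flox members was well above that in members of the second library, and so was its level in the other tumor cells. Less abundant genes with ratios of this size were Lmo7, a scaffold of adherens junctions, with ratios of 4.64 and 5.40, the mitochondrial carrier Slc25a48 with 4.64 and 4.29, 1700012B09Rik with 4.25 and 5.02, the synaptotagmin Syt8 with 3.57 and 3.97 and gamma-synuclein (Sncg) with 3.83 and 5.22. Only 3 flox members held the UMIs of Sncg.

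A further group of leading genes rested on few cells. Sprr1a, a protein of the cornified envelope, had ratios of 8.51 and 5.38, and 4 members carried 50% of its UMIs. The ion pump regulator Fxyd3 had ratios of 6.08 and 5.12, Tm4sf4 of 4.55 and 5.59 and the protease Mmp7 of 3.78 and 8.42, each with 50% of its UMIs in 3 members. Without the cells holding Epcam or gastric, islet or plasma cell genes, Tm4sf4 was at 0.73 times the others in the library labelled MCT1-KO and Mmp7 at 0.68 times in the flox library. Clusterin (Clu) was at 2.29 and 1.77 times in all members and at 0.68 and 0.69 times without those cells. Sprr1a had ratios of 8.60 and 4.67 without them, but 0.63 in the flox library among the top 5% of cells, and Fxyd3 was at 0.29 there when Krt19 was left out of the score.

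**Figure D2:**
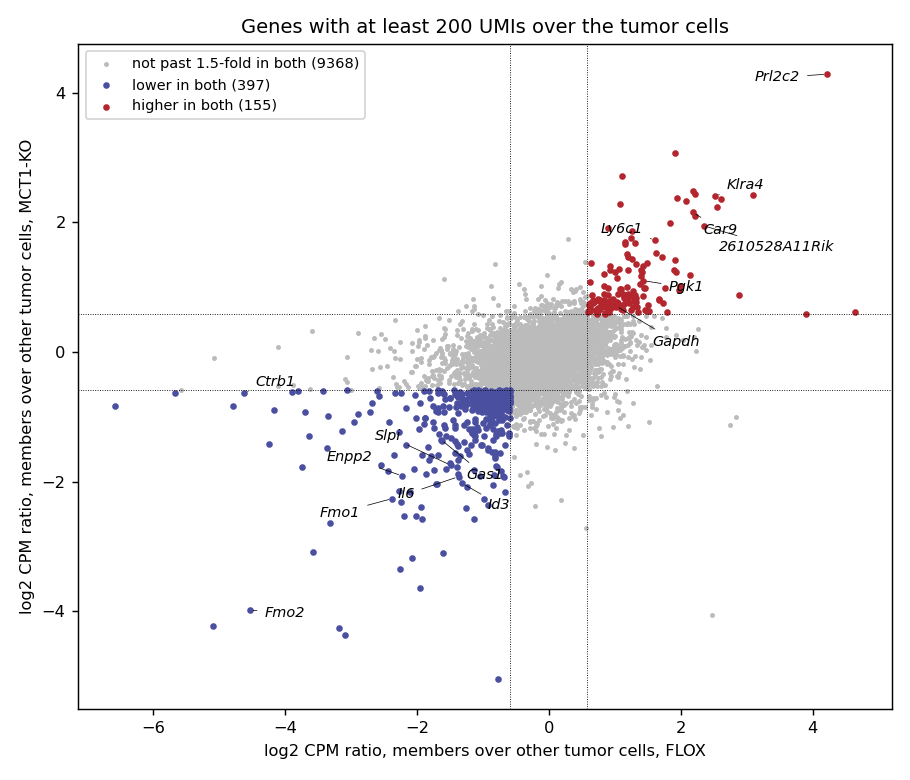
Each of 9920 genes as a point, with the log2 ratio of its level in members to that in other tumor cells in the flox library (FLOX, x axis) and in the library labelled MCT1-KO (y axis). Dotted lines mark 1.5-fold, the 155 genes higher in both libraries are red and the 397 lower ones blue, and Prl2c2 lies at the upper right with ratios of 18.7 and 19.5.

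Among gene groups, glycolysis and the response to low oxygen stood out. Cells short of oxygen stabilize the factor HIF-1, which raises the glycolytic enzymes, so that glucose is turned to lactate, and raises pH regulators such as carbonic anhydrase 9. Of 28 genes counted from this list, 14 were past 1.5-fold higher in both libraries and 0 lower, against 1.56% and 4.0% of all genes. The summed level of the list was 12241 CPM in flox members against 6471 CPM, a ratio of 1.89 (1.86 to 1.92), and 8606 against 5672 CPM in the library labelled MCT1-KO, a ratio of 1.52 (1.499 to 1.535). The median log2 ratio of its genes was 0.89 and 0.58. Per cell the gap was narrower than in the sums, with medians of 91.1 against 55.1 UMIs per 10000 in the flox library and 57.6 against 49.7 in the second.

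Car9 (chr4:43506966-43513729, plus strand) was at 86.9 and 48.6 CPM in members and 19.1 and 10.9 CPM in other tumor cells, ratios of 4.54 (3.59 to 5.71) and 4.46 (3.70 to 5.35). It was found in 28 and 45 members. Of tumor cells with a Car9 UMI, 23.7% and 27.8% were members, against 5.86% and 9.59% of those without. Among the enzymes, Pgk1, which makes the first ATP of glycolysis, was at 803 and 560 CPM in members against 299 and 261 CPM, ratios of 2.69 (2.51 to 2.89) and 2.15 (2.05 to 2.25). Gapdh was at 2651 and 2088 CPM against 1309 and 1274 CPM, ratios of 2.03 and 1.64, and Pkm at 934 and 777 CPM against 461 and 481 CPM. Eno1, Aldoa, Pgam1 and Tpi1 lay between 1.55 and 1.88. Gapdh and Aldoa have processed pseudogenes that can share their reads.

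Other HIF-1 targets moved alike. The prolyl hydroxylase Egln3, which marks HIF for decay, was at 233 and 63.9 CPM in members against 70.3 and 38.0 CPM, ratios of 3.31 and 1.68. The oxidase Ero1l was at 121 and 43.1 CPM against 31.0 and 22.3 CPM, and the mitophagy receptor Bnip3 at 170 and 66.5 CPM against 64.0 and 28.4 CPM. Pdk1, a kinase that inhibits pyruvate dehydrogenase, had ratios of 2.21 and 1.79, Higd1a of 2.51 and 1.70, and the cytokine Mif of 2.43 and 1.92. With score and levels from separate UMIs Pdk1 was at 1.28 and 0.92, and Aldoa (1.37), Tpi1 (1.48), Pkm (1.48) and Pgam1 (1.49) fell short of 1.5-fold in the library labelled MCT1-KO, so these 5 of the 14 calls were lost. Not every member of the list followed. Hexokinase 2 (Hk2) was at 0.91 and 0.84 times the other cells, the glucose transporter Slc2a1 at 1.08 and 0.76 times, Vegfa at 0.94 and 0.61 times and Ddit4 at 0.70 and 0.67 times. Ndrg1 was past the fold in the flox library alone (1.70 and 1.07).

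These genes were not spread evenly over the members. By the highest rule gene, the summed list was at 11866 CPM in members led by Krt19, 8516 CPM in those led by Msln and 6774 CPM in those led by Krt7. Car9 was at 100 CPM (87.0 to 115), 52.9 CPM (39.7 to 69.0) and 7.08 CPM (3.39 to 13.0) in the same order. Flox cells were 40 of the 123 led by Krt19, 7 of the 64 led by Msln and 22 of the 89 led by Krt7, and the part of the library in these levels was not tested. When the members were chosen by Krt7 alone, the ratio of the summed list was 1.15 and 1.17. From the other side, tumor cells of each library were ranked by their share of these glycolysis and hypoxia UMIs. In decile 10, the highest, 32 of 102 flox cells (31.4%, 22.5 to 41.3) and 59 of 222 cells of the second library (26.6%, 20.9 to 32.9) were members. In deciles 1 to 9 the shares ran from 0.971% to 9.80% and from 6.28% to 14.4%.

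**Figure D3:**
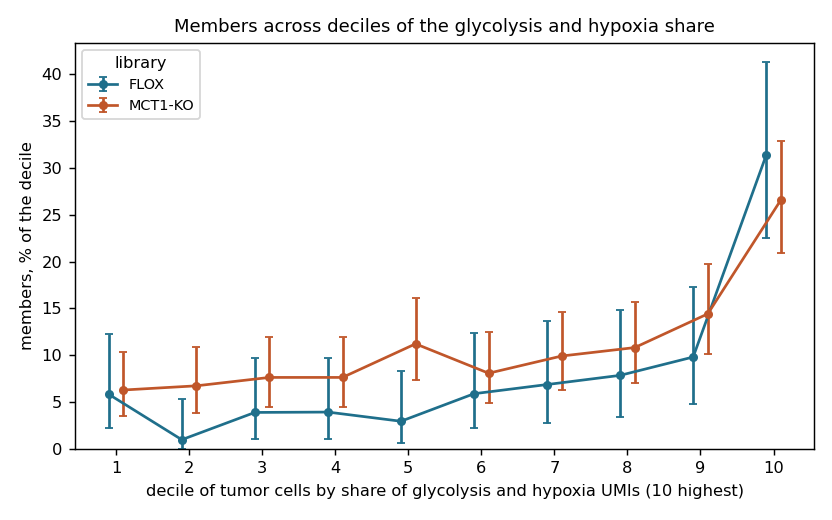
Percent of tumor cells that were members in each decile of the summed share of glycolysis and hypoxia UMIs, for the flox library and the library labelled MCT1-KO, with exact binomial 95% intervals. The share stays at or below 14.4% up to decile 9 and reaches 31.4% and 26.6% in decile 10.

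Promoter windows of 250 bases before the start site are shown for Krt7, the rule gene with an entry in the RefSeq table (GRCm38.p6), and for 4 genes of the hypoxia list whose window holds ACGTG, the core that HIF-1 recognizes, those with the largest ratios in the flox library. Msln, Slurp1 and Krt19 have no entry. The start sites are those of RefSeq, and for Krt7 and Car9 they lie inside the gene span of GENCODE vM21 printed above. Capitals mark, in Krt7, GC boxes (GGGCGG, either strand) and CACCTG, the E-box bound by ZEB and SNAI factors, and in the others ACGTG on either strand.
Krt7 (chr15:101412153-101412402, plus strand): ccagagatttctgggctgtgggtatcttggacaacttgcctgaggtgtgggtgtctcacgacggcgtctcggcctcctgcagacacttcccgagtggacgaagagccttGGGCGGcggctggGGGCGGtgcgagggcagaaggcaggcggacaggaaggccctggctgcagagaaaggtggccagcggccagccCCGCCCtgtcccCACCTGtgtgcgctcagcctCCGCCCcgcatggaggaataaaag
Car9 (chr4:43506776-43507025, plus strand): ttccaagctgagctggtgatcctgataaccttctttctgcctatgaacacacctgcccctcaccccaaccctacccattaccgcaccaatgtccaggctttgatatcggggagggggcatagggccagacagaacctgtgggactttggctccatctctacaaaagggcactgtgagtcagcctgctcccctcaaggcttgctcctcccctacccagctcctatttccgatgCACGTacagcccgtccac
Pgk1 (chrX:106186850-106187099, plus strand): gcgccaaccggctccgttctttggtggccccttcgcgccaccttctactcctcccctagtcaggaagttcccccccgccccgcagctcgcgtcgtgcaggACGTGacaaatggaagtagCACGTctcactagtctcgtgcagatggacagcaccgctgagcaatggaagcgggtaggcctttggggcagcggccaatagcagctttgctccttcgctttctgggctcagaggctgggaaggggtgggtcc
Bnip3 (chr7:138909507-138909756, minus strand): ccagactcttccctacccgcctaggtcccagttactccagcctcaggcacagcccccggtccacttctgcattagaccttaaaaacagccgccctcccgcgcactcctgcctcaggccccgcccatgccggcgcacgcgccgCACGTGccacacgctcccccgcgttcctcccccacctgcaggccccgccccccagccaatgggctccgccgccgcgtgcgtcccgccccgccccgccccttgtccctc
Egln3 (chr12:54203875-54204124, minus strand): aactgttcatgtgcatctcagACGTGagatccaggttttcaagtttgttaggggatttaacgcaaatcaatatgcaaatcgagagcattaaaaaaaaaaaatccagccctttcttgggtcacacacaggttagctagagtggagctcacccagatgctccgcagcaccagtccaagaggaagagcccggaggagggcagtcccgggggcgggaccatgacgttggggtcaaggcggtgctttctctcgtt
Krt7 holds 4 GC boxes and 1 CACCTG, and 32.7% and 17.2% of all 32851 windows hold them. ACGTG was looked for after the levels had been seen. It was present in a window of 7 of the 13 higher genes of the list that have an entry (Aldoa, Bnip3, Car9, Egln3, Pgam1, Pgk1 and Pkm), in 8 of 12 counted genes of the list that were not higher, and in 18.5% of all 27025 genes. The motif was thus no more frequent in the genes that were higher in members than in the rest of the list.

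Lactate handling could be read from 3 genes only. Ldha, which turns pyruvate to lactate, was at 1223 and 1012 CPM in members against 710 and 691 CPM, ratios of 1.72 (1.63 to 1.82) and 1.46 (1.41 to 1.52), and Bsg, the chaperone that brings lactate transporters to the membrane, had ratios of 1.92 and 1.38. Both were past 1.5-fold in the flox library alone. Slc16a1, the lactate importer targeted in the host's stellate cells, was at 35.2 and 52.0 CPM in members and 33.4 and 44.7 CPM in other tumor cells. Its ratios were 1.06 (0.75 to 1.44) and 1.16 (1.00 to 1.35). With the score and the levels from separate UMIs they were 0.56 (0.285 to 0.998; 12 UMIs in members) and 1.40 (1.12 to 1.72), so no stable difference was read. The exporter Slc16a3 had 1 and 3 UMIs in all members.

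Of 34 cell cycle genes counted, 6 were past the fold higher in both libraries and 0 lower, against 1.56% and 4.0% of all genes. They were Ccnb1, Birc5, Ube2c, Mcm5, Rrm2 and Uhrf1. The median log2 ratio of the list was 0.68 and 0.39, and 30 and 29 of its genes lay above 1. In cells with over 5000 genes, which the rule left out, Rrm2 alone of the 6 was past the fold again (1.67 and 1.99), while Ube2c (0.98 and 0.88), Birc5 (1.04 and 0.89) and Ccnb1 (0.96 and 0.86) were near 1 or below it. Rrm2, a subunit of ribonucleotide reductase, was at 47.5 and 35.4 CPM in members against 12.7 and 13.2 CPM, ratios of 3.76 (2.74 to 5.09) and 2.67 (2.18 to 3.25). Mki67 was at 59.8 and 39.3 CPM against 29.4 and 36.1 CPM, ratios of 2.03 and 1.09, and 9.64% and 12.3% of tumor cells with a Mki67 UMI were members against 7.51% and 10.5% without.

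Of 17 genes counted for secreted and barrier proteins of epithelium, 4 were higher (Clu, Anxa8, Sprr1a and Areg) and 2 lower (Slpi and Il1rn), against 1.56% and 4.0% of all genes, with Clu on the lower side once cells holding Epcam or the other listed genes were left out. Annexin A8 (Anxa8) was at 38.5 and 72.3 CPM in members against 17.2 and 22.9 CPM, ratios of 2.24 (1.60 to 3.07) and 3.16 (2.74 to 3.64), over 26 and 120 members. The EGF receptor ligand Areg was at 83.6 and 133 CPM against 48.0 and 80.7 CPM, with a flox ratio of 1.16 (0.80 to 1.63) when score and levels came from separate UMIs. Of 6 genes counted for EGF receptor ligands and ERBB receptors, Areg alone was past the fold. That list summed to 0.87 and 0.91 times the other cells. Wnt7b, a Wnt ligand of epithelia, was at 57.4 and 62.1 CPM against 25.3 and 21.8 CPM, ratios of 2.27 (1.73 to 2.94) and 2.84 (2.44 to 3.30). Galectin 3 (Lgals3), a lectin listed here with ligands of immune checkpoints, was at 629 and 975 CPM against 330 and 574 CPM, ratios of 1.91 (1.76 to 2.06) and 1.70 (1.64 to 1.76). Of 8 genes counted from that list it was the 1 past the fold higher, and 0 were lower. The list's median log2 ratios were -0.18 and -0.06, with 2 and 4 of the 8 above 1. Krt76 was the 1 keratin counted besides those of the rule and the gate, with ratios of 7.35 and 1.83 over 8 and 17 members. Krt8 and Krt18, which the gate required in every tumor cell, were at 1.93 and 2.00 and at 1.56 and 1.80 times the other cells. Of the 12 epithelial regulators counted, 0 were higher in both libraries and Foxq1 was lower, against 1.56% and 4.0% of all genes. Their whole list summed to 0.85 and 0.83 times the other cells, with 5 and 4 of the 12 above 1. Klf5 was past the fold in the flox library alone, with ratios of 1.68 and 1.24.

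The lower genes were more numerous. Enpp2, which encodes autotaxin, the secreted enzyme that makes lysophosphatidic acid, was at 375 and 394 CPM in members against 1749 and 1482 CPM. These are ratios of 0.21 (0.19 to 0.23) and 0.27 (0.25 to 0.28). Free RNA of Enpp2 was plentiful. It was at 109 and 82.1 CPM in macrophages without Krt8 or Krt18 UMIs, at 139 and 166 CPM in those taken without this condition, and at 731 and 600 CPM in near-empty barcodes, and after thinning to 3000 UMIs a UMI was found in 45.7% and 44.9% of members, 81.0% and 78.7% of other tumor cells, and 27.1% and 20.3% of the first and 28.1% and 22.9% of the second macrophages. Gas1, a GPI-anchored co-receptor of Hedgehog, was at 107 and 116 CPM against 330 and 296 CPM, ratios of 0.32 and 0.39.

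Among enzymes, the flavin monooxygenases Fmo1 and Fmo2 were low relative to the other cells. Fmo2 was at 0.82 CPM (1 UMI) in flox members against 19.0 CPM, a ratio of 0.0432 (0.00109 to 0.243), and at 4.16 against 65.6 CPM in the library labelled MCT1-KO, a ratio of 0.0634 (0.0362 to 0.103). Fmo1 was at 16.4 and 35.9 CPM against 84.9 and 172 CPM, ratios of 0.19 and 0.21. Of tumor cells with a Fmo2 UMI, 0.952% and 2.76% were members, against 8.71% and 13.6% of those without. Cxcl15, a lung chemokine, was at 0.21 and 0.20 times the other cells, the septin Sept4 at 0.10 and 0.16 times (2 and 6 members with a UMI), the plasma protein Ahsg at 0.24 and 0.11 times and the secreted peptide precursor Ecrg4 at 0.25 and 0.17 times. Immunoglobulin genes were also low (Iglc1 at 0.0294 and 0.0535 times, Jchain at 0.11 and 0.0523 times), but 1 to 3 other tumor cells carried 50% of their UMIs there, and at least 10 plasma cell UMIs were found in 5 and 5 of the other cells.

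Of 28 cytokine and NF-kB genes counted, 4 were past the fold lower in both libraries and 0 higher, against 4.0% and 1.56% of all genes, and the summed list was at 1.06 and 0.89 times the other cells. Il6 was at 18.9 and 13.8 CPM in members against 48.6 and 52.3 CPM, ratios of 0.39 (0.24 to 0.59) and 0.26 (0.20 to 0.35). Il11, of the same cytokine family, was at 220 and 219 CPM against 389 and 393 CPM, and the neutrophil chemokines Cxcl3 and Cxcl5 were at 0.45 and 0.58 and at 0.60 and 0.53 times. Slpi, an inhibitor of neutrophil elastase, was at 30.3 and 42.9 CPM against 85.1 and 144 CPM, and Il1rn, the antagonist of the IL-1 receptor, at 0.49 and 0.37 times.

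Of 22 genes counted for TGF-beta, BMP and Wnt signaling, 4 were lower (Tgfb3, Tgfbr1, Bmp4 and Id3) and Wnt7b was higher, against 4.0% lower and 1.56% higher of all genes. Id3, a target of BMP signals, was at 148 and 53.8 CPM against 368 and 219 CPM, ratios of 0.40 (0.35 to 0.47) and 0.25 (0.21 to 0.28), while the BMP ligand Bmp4 was at 213 and 226 CPM against 400 and 370 CPM. The forkhead factor Foxq1 was at 55.7 and 60.8 CPM against 117 and 139 CPM. Genes of the immediate early response, which tissue dissociation is known to induce, summed to 0.74 times the other cells in both libraries, and Dusp1 was the 1 of 17 past the fold. Heat shock genes summed to 0.74 and 0.98 times, with Dnajb1 and Bag3 past the fold of 15 counted. The part of dissociation in these values was not tested.

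The lists named next had at most 1 gene past the fold in each direction, against 1.56% higher and 4.0% lower of all genes. Of 20 autophagy genes 0 were past the fold in either direction, with summed ratios of 0.84 and 0.91. The 14 genes counted for MHC class I had summed ratios of 0.96 and 0.99, with H2-Q7, which has close relatives in the same cluster, past the fold. Of 18 genes of the NRF2 and redox response, Aldh3a1 was higher and Gstm1 lower, but 1 flox member carried 50% of the UMIs of Aldh3a1. Of 15 genes for p53 and CDK inhibitors, Ccng1 was higher (1.85 and 1.71) and Btg2 lower (0.61 and 0.48). Of 16 YAP and TEAD genes, Tead4 was higher and Ccn1 lower. None of 26 interferon genes was past the fold in both libraries.

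All tumor cells of each library were ranked by the score, decile 1 being the lowest and decile 10 holding the members of the flox library and 222 of the 243 members of the second. The score was 0 throughout deciles 1 to 4 of the flox library and 1 to 3 of the second, so the order among these has no meaning. The summed glycolysis and hypoxia genes went from 5681 to 11822 CPM and from 5278 to 8710 CPM between deciles 1 and 10. Car9 went from 3.82 to 85.3 CPM and from 2.74 to 49.8 CPM, and in decile 8, which held no member, it was at 37.2 and 24.1 CPM. Enpp2 went from 2058 to 410 CPM and from 1768 to 413 CPM, with 1401 and 982 CPM in decile 8. Prl2c2 stayed at or below 5.39 CPM up to decile 9 in the flox library and reached 46.3 CPM in decile 10, and in the second library it was at 6.70, 12.1 and 75.5 CPM in deciles 8, 9 and 10.

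**Figure D4:**
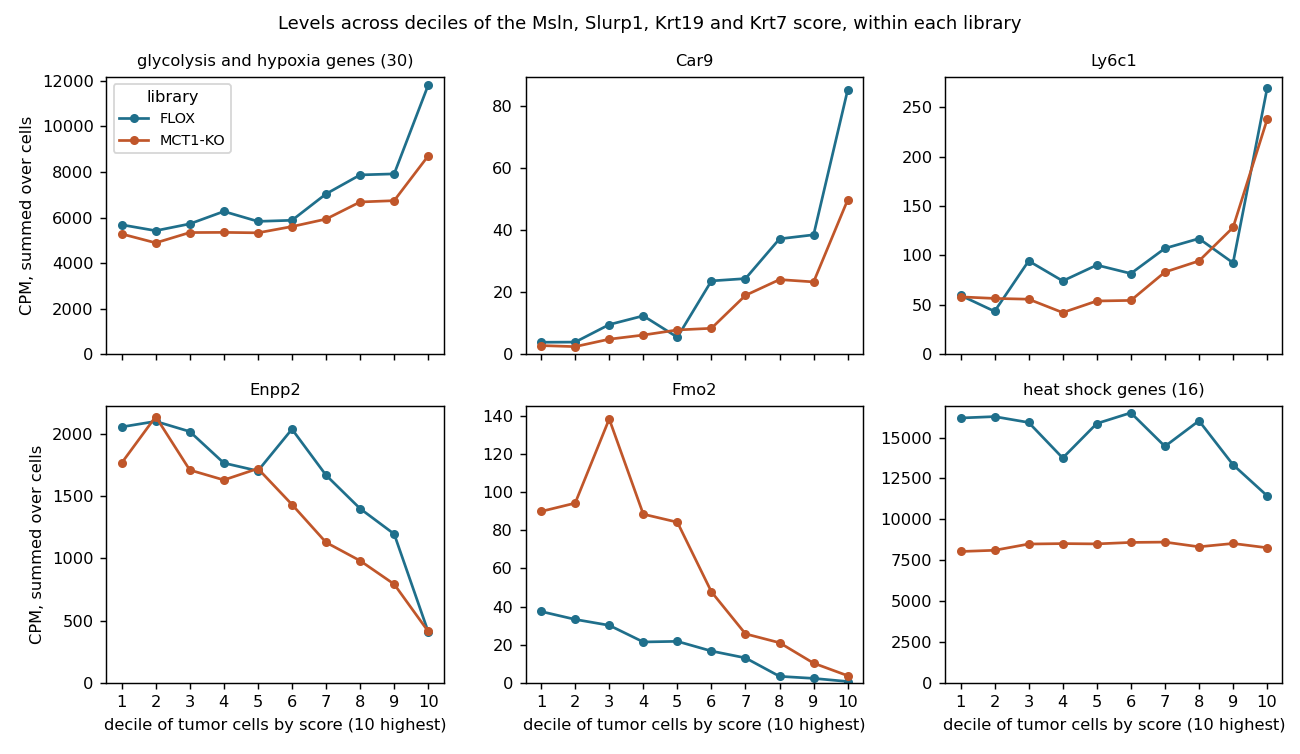
Level in CPM, summed over cells, by decile of the score of the 4 rule genes among tumor cells of the flox library (FLOX) and of the library labelled MCT1-KO, for the glycolysis and hypoxia genes, the heat shock genes and 4 single genes, without error bars. Car9 and Ly6c1 increase and Enpp2 and Fmo2 decrease from decile 1 to decile 10 (Enpp2 from 2058 to 410 and from 1768 to 413 CPM).

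Tumor cells with over 5000 genes gave a set of cells that the rule had not used. These are further cells of the same libraries, split by the same score and threshold, and are not a replicate. There were 754 and 703 of them, with medians of 29622 and 28935 UMIs, and barcodes of such depth can hold more than 1 cell. At or above the members' lowest score lay 76 (10.1%, 8.02 to 12.5) and 101 (14.4%, 11.9 to 17.2). Of the 155 higher genes 140 could be counted there, and 65 (46.4%) were past 1.5-fold in both libraries again, where 1.1% of all 9785 genes were. Of the 397 lower genes 362 could be counted and 174 (48.1%) were past the fold, against 3.53% of all genes. On the same side of 1 in both libraries lay 114 of the 140 and 316 of the 362.

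Prl2c2 was 8.73 (7.16 to 10.6) and 9.47 (7.69 to 11.7) times higher in the high-scoring cells over the limit, Klra4 4.60 and 4.77 times, Car9 3.80 and 6.01 times and Ly6c1 2.03 and 1.99 times. Enpp2 was at 0.30 (0.28 to 0.32) and 0.21 (0.19 to 0.23) times, Fmo2 at 0.090 and 0.046 times and Slpi at 0.37 and 0.28 times. The glycolysis and hypoxia genes summed to 11268 against 6650 CPM and 8744 against 6085 CPM, ratios of 1.69 (1.67 to 1.72) and 1.44 (1.42 to 1.46). Sprr1a, which few members carried, was at 6.62 (5.52 to 7.94) and 4.41 (3.46 to 5.61) times there, whereas other such genes did not recur. Epcam was at 0.374 and 0.592 CPM in the high-scoring cells there, Tm4sf4 at 0 UMIs and at 0.25 times, Mmp7 at 0.47 and 0.70 times and Clu at 0.54 and 0.45 times.

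**Figure D5:**
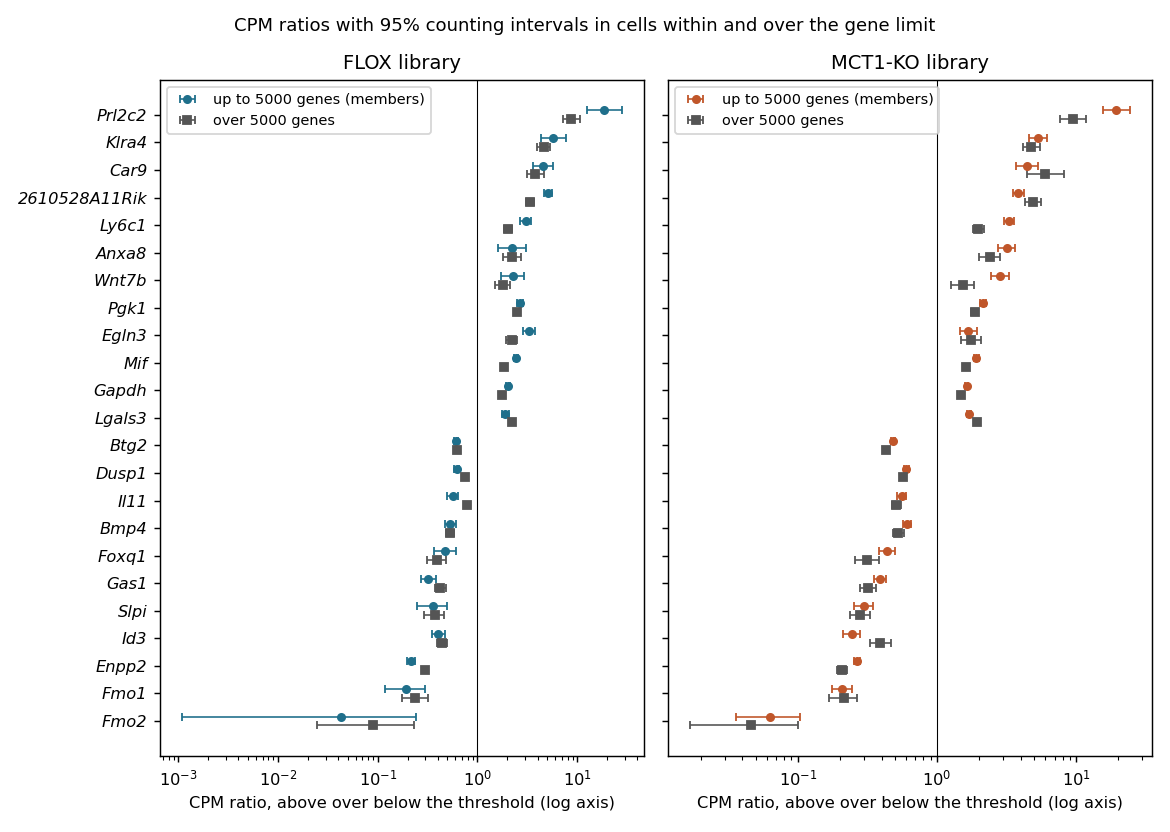
Ratio of the CPM in tumor cells above the score threshold to that below it, on a log axis with 95% counting intervals, for 23 genes in the flox library (left) and the library labelled MCT1-KO (right). Circles are cells with up to 5000 genes, whose high-scoring cells are the members, and squares cells over 5000 genes. The genes are a selection in which each lies on the same side of 1 in both sets (Enpp2 at 0.21 and 0.30 in the flox library). Clu, Mmp7 and other named genes that did not recur are not drawn. Of the higher and lower genes that could be counted over the limit, 114 of 140 and 316 of 362 kept their side in both libraries.

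Between the libraries, members can be set side by side only as single libraries. The summed glycolysis and hypoxia genes in members of the library labelled MCT1-KO were at 0.70 (0.69 to 0.72) times those in flox members, and in other tumor cells at 0.88 (0.87 to 0.88) times. Egln3 was at 0.28 (0.23 to 0.33) times in members and 0.54 (0.50 to 0.59) times in the others. Msln was at 1.64 (1.37 to 1.96) times in members and 2.03 (1.75 to 2.35) times in the others, and Krt19 at 0.73 (0.66 to 0.81) and 0.86 (0.76 to 0.97) times, so both genes differed between the libraries outside the members too, while Krt7 was at 34.2 and 35.5 CPM there. By levels summed over cells, 6 of 26 interferon genes lay above 1 in the flox library and 23 of 26 in the second. Their median log2 ratios were -0.29 and 0.34, against -0.09 and -0.08 over all genes. Per cell, scaled as for the glycolysis and hypoxia list, the medians did not lie on opposite sides. The median member was below the median other tumor cell in the flox library (44.4 against 49.8) and close to it in the second (39.5 against 39.9). The upper quartiles were 61.9 in members against 67.4 in the flox library and 55.8 against 50.3 in the second. Cxcl9, a chemokine induced by interferon gamma, was at 120 CPM in flox members against 261 CPM in other flox tumor cells, and at 160 against 97.5 CPM in the library labelled MCT1-KO. Cd274, which encodes PD-L1, had ratios of 0.20 (0.073 to 0.44) and 1.41 (1.10 to 1.79), with a UMI in 6 and 26 members. Host genotype, any difference in tamoxifen treatment, mouse, tumor and library preparation cannot be told apart in these values.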

How the data were processed

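Cells of orthotopic KPC tumors were sequenced as 1 library per condition, and groups were taken from the genotype label. Per the study's methods the authors used Fastp for trimming and SeekOneTools for counting, and the deposited values are raw UMI counts per gene and barcode, not normalized or filtered. The methods name the human build GRCh38 while the files list mouse Ensembl identifiers, which leaves the build of the counts unknown, and gene positions come from GENCODE vM21 (GRCm38) by identifier. The methods name another capture kit than the labels, which give a microwell kit. The submitters' notes name Seurat 4.0.0, which made none of the counts used here.

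Counts were summed over cells per library with scanpy 1.11.5, scikit-learn 1.9.0, pandas 2.3.3, scipy 1.17.1 and numpy 2.4.6 under python 3.11.15, and figures were drawn with matplotlib 3.10.9. No doublet caller was run, and the gate removed barcodes with a UMI of Ptprc or Pecam1 but left some UMIs of other immune and endothelial genes. A gene was counted with at least 200 UMIs over all tumor cells and called at 1.5-fold in each library, with a count of 0 set to a floor of 3. No p-value is given, since 1 library per group has no replicates. Intervals (95%) and floors cover counting error only.

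The members and the gene lists were chosen with earlier results of these data known. Named genes were the rule genes, genes among the 15 highest and 15 lowest by the smaller ratio, up to 8 genes of each list, and Slc16a1. Genes named outside this rule were chosen after their values were seen. Alternatives changed the share of cells taken, depth, rule genes, gate, mitochondrial limit, CPM total, UMI filter, fold and neighbours. Those chosen after seeing the data left out cells with Epcam, gastric, islet or plasma cell UMIs, lifted the gene limit, averaged over cells or used a single rule gene. The procedure was tested on simulated data, drawn as summed counts with changes larger than 1.5-fold. Choice of cells by a score and genes held by few cells were not simulated, so that test does not cover them.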

Additional observations from a re-analysis of the deposited data

Results flagged for a closer look

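In 3 gene lists the members' summed level was above that of the other tumor cells in one library and below it in the other. The intervals of these summed ratios left out 1 in each library, and the difference between the libraries was not tested. The median cells did not lie on opposite sides in any of the 3 lists. The summed neutrophil markers were at 1.25 times the other cells in the flox library and 0.396 times in the second. Per cell, scaled as for the glycolysis and hypoxia list, their median was 0.467 in members against 0.448 in the flox library. It was 0 in members and 0 in the others in the second. S100a8 and S100a9, the most abundant of them, had 67 and 86 UMIs in flox members and 52 and 36 in members of the second library.
Islet markers (2.23 and 0.0580 times, with 3 UMIs in flox members) and macrophage markers (0.962 and 1.16 times) also lay on opposite sides, with flox intervals that held 1.
The summed interferon genes were at 0.860 and 1.07 times, and the summed cytokine and NF-kB genes at 1.06 and 0.892 times. On the same per-cell scale the median member was below the median other tumor cell in both libraries for both lists. The medians were 44.4 against 49.8 and 39.5 against 39.9 for interferon genes, a small gap in the second library. For cytokine and NF-kB genes they were 39.6 against 46 and 33.6 against 35.6. Within the cytokine and NF-kB list Lif, a cytokine of the IL-6 family, had ratios of 1.59 and 0.69, and the neutrophil chemokine Cxcl1 of 0.92 and 0.41. Cells outside the comparison also reached the members' scores, namely 10.1% of flox tumor cells and 14.4% of tumor cells of the second library with over 5000 genes.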

How the results depend on the processing

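No paired analysis was possible because each group has 1 library. Depth limits genes held by few UMIs, and whether another pair of libraries would give the same values was not tested. The share of neighbours that were members ran from 13.4% to 17.5% and from 23.2% to 25.5%. The CPM total without rule and mitochondrial genes gave 155 and 397 genes.

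The main values are shares of 7.92% and 10.9%, 155 higher and 397 lower genes, and 0.703 for the glycolysis and hypoxia sum in members of the library labelled MCT1-KO over flox. Among the top 5% of cells the shares were 4.11% and 5.39%, with 249 higher and 722 lower genes and a sum of 0.633. Among the top 20% they were 16.7% and 21.5%, with 87, 218 and 0.740. Taking 10% within each library gave 0.737. Thinning to 3000 UMIs, with 5776 genes counted, gave 33, 221 and 0.731, and 22 and 89 of these genes were shared. Without Msln the flox share was 10.3% and the sum 0.733, without Krt19 98 genes were higher and the sum was 0.804, and without Krt7 it was 0.679. With scores and levels from separate UMIs 98 were higher and the sum was 0.718. The stricter gate gave 0.873, leaving out the deepest cells 0.732, leaving out cells with Epcam or gastric, islet or plasma cell UMIs 0.672, and no gene limit 0.744. A minimum of 50 UMIs gave 341 higher genes, and 2-fold gave 43 higher and 96 lower. By Msln alone the flox share was 5.08%, with 89, 227 and 0.674. By Krt19 alone the shares were 10.9% and 9.57%, with 0.793, and by Krt7 alone 59, 227 and 0.875. The summed glycolysis and hypoxia genes were above 1 under every setting, from 1.15 to 2.30 and from 1.17 to 1.66.

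Among named genes that were past the fold or in the rule, the following crossed 1, and the cause was not tested. Slc16a1, not past the fold, was at 0.560 in flox with separate UMIs and 0.695 under the stricter gate. In the flox library they were, at the top 5%, Sprr1a 0.634, Rasgrp2 1.40, Hsd11b1 1.32, Clu 0.695 and H2-Q7 0.960. Thinned, they were Slc6a12 1.75, Rasgrp2 4.50, Hsd11b1 2.62, Clu 0.992, H2-Q7 0.339, Krt76 0.807, Tgfb3 1.10 and Uhrf1 0.284, and in the second library Rasgrp2 1.01, Col5a2 1.09 and Ly6c2 1.06. Without Msln Tagln was 1.12. Without Krt19 Fxyd3 was 0.287, Aldh3a1 0.389, Clu 0.726 and Ube2c 0.911, and in the second library Reg2 1.12. With separate UMIs Clps was 1.25 and Tead4 0.463, and in the second library H2-Q7 0.952 and Pdk1 0.918. Under the stricter gate Iglc1 was 1.24, Jchain 1.00, Igha 1.46, Slc6a12 1.40, Hsd11b1 1.19, Sparcl1 2.14, Ly6c2 1.19 and Uhrf1 0.383. Without the deepest cells Aldh3a1 was 0.985, and in the second library Ccnb1 0.988, Ctrb1 1.08 and Try4 1.07. Without the cells holding Epcam or the other listed genes Mmp7 was 0.683, Iglc1 1.12, Jchain 1.29, Igha 1.14, Aldh3a1 0.225, Clu 0.683, H2-Q7 0.943 and Ly6c2 1.72, and in the second library Tm4sf4 0.728, Iglv1 1.34, Clu 0.688, H2-Q7 0.977 and Ly6c2 1.505. With no gene limit Ccnb1 was 0.957 and Tagln 1.23. Of the other alternative values of named genes and of the summed glycolysis and hypoxia genes, 2481 lay within the counting interval and 766 outside it. These 766 lay on the same side of 1, apart from values of Slc16a1.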

Other observations

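Members led by different rule genes also differed in genes named for the whole of the members or counted among the lower ones. Matrix Gla protein (Mgp), a secreted inhibitor of calcification, was at 116 CPM (102 to 132) in the 123 members led by Krt19, 488 CPM (447 to 533) in the 64 led by Msln and 841 CPM (793 to 890) in the 89 led by Krt7. Enpp2 was at 334 CPM (309 to 360), 305 CPM (272 to 341) and 570 CPM (531 to 610), and Prl2c2 at 113 CPM (98.9 to 129), 46.0 CPM (33.8 to 61.2) and 20.5 CPM (13.7 to 29.5). Cell cycle genes summed to 1473, 996 and 913 CPM. These are sums over both libraries, with flox cells unevenly divided between the groups, and no test was made.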
